A study of Sus scrofa with 4 samples.

Results

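RNA of 10 complement components was compared between untransplanted pig kidneys and pig kidneys transplanted into non-human primates. The components were C1R, C1S, C2, C4A, C3, CFB, C5, C6, C7 and C9. The genes were chosen by symbol to cover the classical, alternative and terminal pathways of complement, and all 10 were found among the 26466 gene symbols of the count files. Each had at least 15 counts in every library. There were 4 libraries, 1 for each combination of genotype and state of the kidney. All pigs carried GalT-/-, the loss of the galactosyltransferase that makes the alpha-Gal antigen. The first genotype, GalT-/-;hCD39;hCD55, is called CD39/CD55 here and carried human CD39 and CD55. The second, GalT-/-;hCD39;hCD46;hCD55;TBM, is shortened to CD46/TBM and also carried human CD46 and thrombomodulin. The transplanted kidney was sampled at 4 weeks in CD39/CD55 and at 6 weeks in CD46/TBM, and an untransplanted kidney of each genotype served as its control. Before and after transplantation below compare these separate kidneys, which the labels do not pair. The series was set up to choose between these genotypes by how far each eases rejection. Between the transplanted kidneys, genotype, time and recipient cannot be told apart. The labels name neither the promoters of the transgenes nor the number of animals, and no unmodified pig was included.

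Complement is a cascade of plasma proteins in which each protease activates the next component. The classical pathway starts when C1q on an antibody activates the proteases C1r and C1s, which cleave C4 and C2 to form a C3 convertase. The alternative pathway builds its own convertase from C3b and factor B, and both routes lead through C5 to the membrane attack complex of C5b, C6, C7, C8 and C9. The liver makes most of the plasma pool, but kidney tubule epithelium, fibroblasts and macrophages also transcribe components. In grafts from pigs complement is a main effector of antibody-mediated rejection, and human CD46 and CD55 are placed on donor cells to restrain the convertases.

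Total counts ranged from 10346863 to 14092905 per library. Loci of ribosomal RNA took between 10.8% and 22.4% of counts and the mitochondrial chromosome between 4.23% and 15.0%, with the highest ribosomal and the lowest mitochondrial share in the transplanted CD39/CD55 kidney. The 10 components together had 2720 and 6213 counts in untransplanted and transplanted CD39/CD55 tissue, and 2828 and 6986 in the CD46/TBM ones. Levels below are in scaled CPM, counts per 1000000 after TMM scaling, and intervals are exact 95% intervals that cover counting error only. The SE given with each log2 fold change is derived from the F statistic of the test and restates its result. In whole tissue, fewer cells of a type and less RNA per cell cannot be told apart. The counts are of pig genes. Whether RNA of recipient cells in the transplanted kidneys was missed or counted as pig was not tested. Circulating complement of the recipient was not measured.

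The summed level of the 10 components was 198 and 502 scaled CPM in untransplanted and transplanted CD39/CD55 tissue, and 224 and 675 in the CD46/TBM ones. Of the 10, 8 were higher in both transplanted kidneys than in either untransplanted one, an order that 26.3% of the 18168 genes tested also showed. C4A was lower in both transplanted kidneys than in either untransplanted one, as were 25.5% of genes. C6 was the component whose levels overlapped between the states. Within CD39/CD55, 7 components were called higher and 1 lower after transplantation, beside 13.2% and 13.7% of all genes. Within CD46/TBM the numbers were again 7 and 1, beside 15.9% and 16.3% of all genes. A component was called when the scaled counts of 2 libraries differed at least 2-fold and the interval of their ratio excluded 1. The median log2 ratio of the 10 was 1.60 in CD39/CD55 and 1.62 in CD46/TBM kidneys, and the median over all genes was 0.02 and 0.01.

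**Figure D1:**
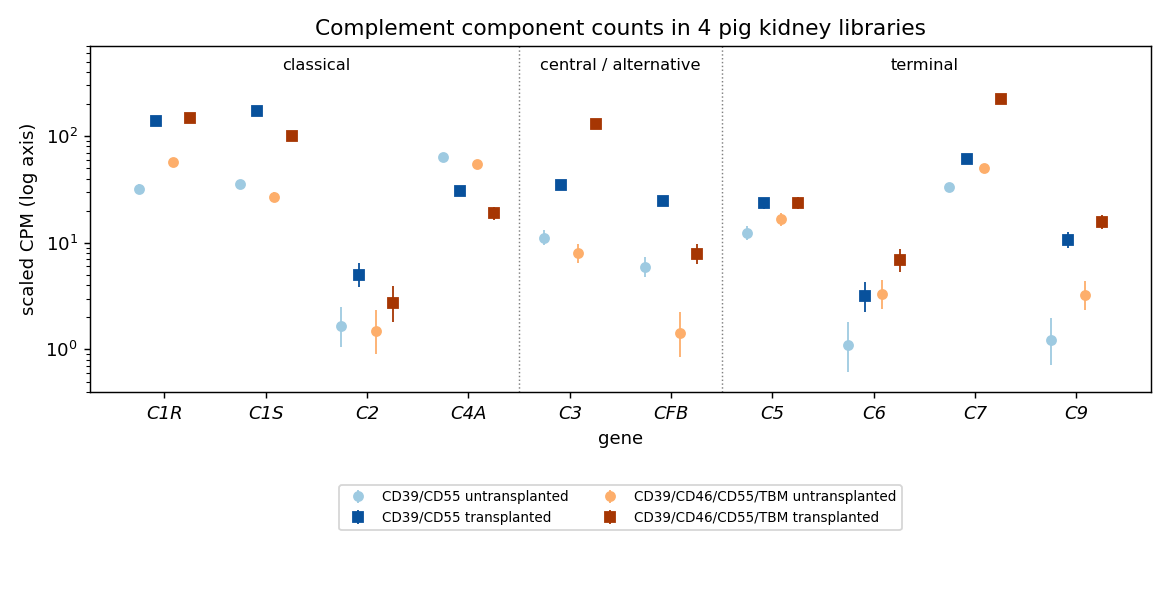
Level of each complement component in the 4 libraries, in scaled CPM on a log axis. Points are single libraries, circles untransplanted and squares transplanted, and bars are exact 95% Poisson intervals of the count. C4A is the component whose squares both lie below its circles.

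Transplanted and untransplanted kidneys were also compared over both genotypes, 2 libraries against 2, with edgeR's quasi-likelihood test over all genes. Of the 10 components, C3, C1S and C9 rose and none fell, beside 1.24% of all genes that rose and 2.71% that fell. At an unadjusted p under 0.05 there were 6 with higher and 1 with lower values, beside 1633 and 1946 of the 18168 genes tested. Neither DESeq2's Wald test nor limma voom called any of the 10 lower. The median log2 fold change of the 10 was 1.73, against 0.03 over all genes. With genotype as a block in the model, C1R, CFB and C7 also rose and C4A fell, making 7 called components. That fit had fewer residual degrees of freedom, and over all genes it called 1124 higher and 1681 lower. The libraries on each side differ in genotype, and the labels do not say whether they came from separate animals, so the p-values measure only the spread between these libraries.

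The proteases of the classical pathway were C1R (chromosome 5, 63644097 to 63655149, Sscrofa11.1) and C1S (chromosome 5, 63670309 to 63681466). C1r cleaves itself and then C1s, which in turn cleaves C4 and C2. C1S had 484 and 2108 counts in untransplanted and transplanted CD39/CD55 tissue, and 343 and 1027 in the CD46/TBM ones. It was 4.83-fold and 3.66-fold higher after transplantation, and rose by 2.11 (log2) over both genotypes, with an SE of 0.45 and an adjusted p of 0.0221 in edgeR's test. The states did not overlap, and the lowest transplanted level was 2.82 times the highest untransplanted one. Without the untransplanted CD46/TBM library C1S did not pass (edgeR adjusted p = 0.101), and over the 11 alternatives its adjusted p ran from 7.98e-05 to 0.101.

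C1R had 440 and 1710 counts in CD39/CD55 kidneys and 722 and 1534 in CD46/TBM kidneys. Both transplanted kidneys lay above both untransplanted ones, and the ratios were 4.31 and 2.60. The log2 fold change of 1.68 (SE 0.44) had an adjusted p of 0.0545 in edgeR's test, which was under the threshold in 6 of 11 alternatives. The partner genes lie 15.2 kb apart with no annotated gene between them. Their balance differed between the genotypes more than between the states. The ratio of C1R to C1S counts was 0.909 (95% interval 0.797 to 1.04) and 0.811 (0.761 to 0.865) in untransplanted and transplanted CD39/CD55 tissue. In CD46/TBM it was 2.10 (1.85 to 2.40) and 1.49 (1.38 to 1.62), so that neither interval of this genotype reached those of the other. A ratio of counts within a library does not depend on scaling, and since the genes differ in length only its change between libraries is read.

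The substrates of C1s are the products of C4A (chromosome 7, 24068019 to 24083060), whose fragment C4b attaches to the target surface, and of C2 (chromosome 7, 24020590 to 24034042), the protease part of the classical C3 convertase. C4A had 879 and 375 counts in CD39/CD55 kidneys and 700 and 196 in CD46/TBM kidneys. It was 2.11-fold and 2.92-fold lower after transplantation, opposite to the other 9 components. The lowest untransplanted level was 1.83 times the highest transplanted one. Over both genotypes the log2 fold change of C4A was -1.28 (SE 0.42), and it did not pass edgeR's quasi-likelihood test (adjusted p = 0.112). It passed with genotype as a block (adjusted p = 0.00592) and without the transplanted CD39/CD55 library (0.0326). C4A went from 32.3% to 6.04% of the counts of the 10 components in CD39/CD55 and from 24.8% to 2.81% in CD46/TBM.

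C2 was scarce, with 23 and 62 counts in CD39/CD55 kidneys and 19 and 28 in CD46/TBM kidneys. It was called higher in CD39/CD55 (2.95-fold), while the interval of the log2 ratio in CD46/TBM, -0.04 to 1.77, included no difference. Over both genotypes its adjusted p was 0.274 in edgeR's test. The classical genes thus did not move together: 3 had higher values and C4A lower values in both genotypes, and of the 4 only C1S passed the test.

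**Figure D2:**
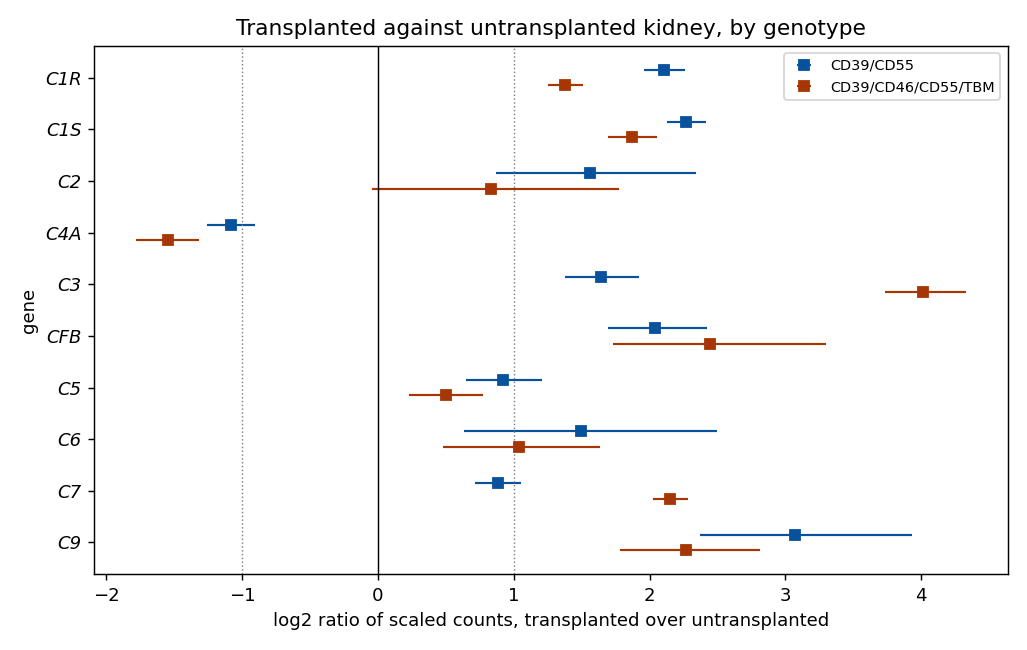
Log2 ratio of scaled counts, transplanted over untransplanted kidney, for each component within each genotype, with exact 95% counting intervals; dotted lines mark 2-fold. The C3 ratio is 1.64 in CD39/CD55 and 4.02 in CD46/TBM kidneys, and the C4A ratios lie to the left of zero.

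C3 (chromosome 2, 72431470 to 72471622), the component on which all routes converge, had the largest log2 fold change of the 10 in the test over both genotypes. Its levels did not overlap between the states. C3 had 153 counts in untransplanted and 431 in transplanted CD39/CD55 kidneys, and 101 and 1343 in CD46/TBM kidneys. This was a 3.12-fold difference in the first genotype and a 16.2-fold difference in the second. Over both genotypes the log2 fold change was 3.10, with an SE of 0.59 and an adjusted p of 0.0133 in edgeR's test. C3 passed in 11 of 11 alternatives, with adjusted p from 1.59e-08 to 0.0247. Without the transplanted CD46/TBM library its log2 fold change was 1.87, and without that of CD39/CD55 it was 3.77.

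The transplantation ratio of C3 was 5.19 times larger in CD46/TBM than in CD39/CD55 (log2 difference 2.38, 95% Wald counting interval 1.98 to 2.77). C7 was the other component called in this way, and both were called higher, beside 10.3% of all genes called higher and 11.5% called lower. No component was called lower. With 1 library per group this difference has no replicate check. C3 was 1.39-fold lower in CD46/TBM before transplantation and 3.72-fold higher after it.

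CFB (chromosome 7, 24034077 to 24040523) encodes factor B, the protease part of the alternative C3 convertase. It had 82 and 306 counts in CD39/CD55 kidneys and 18 and 82 in CD46/TBM kidneys, ratios of 4.12 and 5.44. Both transplanted kidneys were above both untransplanted ones, by a margin of 1.33 times, since the transplanted CD46/TBM level of 7.93 scaled CPM was close to the untransplanted CD39/CD55 level of 5.97. The log2 fold change over both genotypes was 2.14 (SE 0.69, edgeR adjusted p = 0.107). CFB passed in 5 of 11 alternatives, among them that with genotype as a block (adjusted p = 0.000517). Its log2 fold change was 3.51 without the untransplanted CD39/CD55 library (adjusted p = 0.00103) and 2.74 without the transplanted CD46/TBM one (0.00228). It was 1.10 without the transplanted CD39/CD55 library (0.271) and 1.45 without the untransplanted CD46/TBM one (0.247).

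CFB was lower in CD46/TBM in both states, 4.12-fold in the untransplanted and 3.11-fold in the transplanted kidneys. CFB lies close to its neighbours, 34 bases from the end of C2 and 1 base from NELFE, a subunit gene of the negative elongation factor of transcription. NELFE had 561 and 571 counts in CD39/CD55 kidneys and 233 and 213 in CD46/TBM kidneys, so it too was lower in the second genotype, 2.22-fold and 2.24-fold. Between the states NELFE differed by 1.13-fold and 1.12-fold. Whether reads of one of these genes were counted in the other was not tested. The ratio of CFB to C2 counts was 3.57 and 4.94 in CD39/CD55, and 0.947 and 2.93 in CD46/TBM kidneys.

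The ratio of C3 to C4A counts set the components that moved most in opposite directions beside each other. It was 0.174 (95% interval 0.146 to 0.207) and 1.15 (0.998 to 1.32) in untransplanted and transplanted CD39/CD55 tissue, and 0.144 (0.116 to 0.178) and 6.85 (5.89 to 8.0) in the CD46/TBM ones. The untransplanted kidneys had overlapping intervals, and the transplanted kidneys did not. Relative to C5, the relative of C3 that acts next, C3 counts went from 0.90 to 1.48 in CD39/CD55 and from 0.481 to 5.53 in CD46/TBM.

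**Figure D3:**
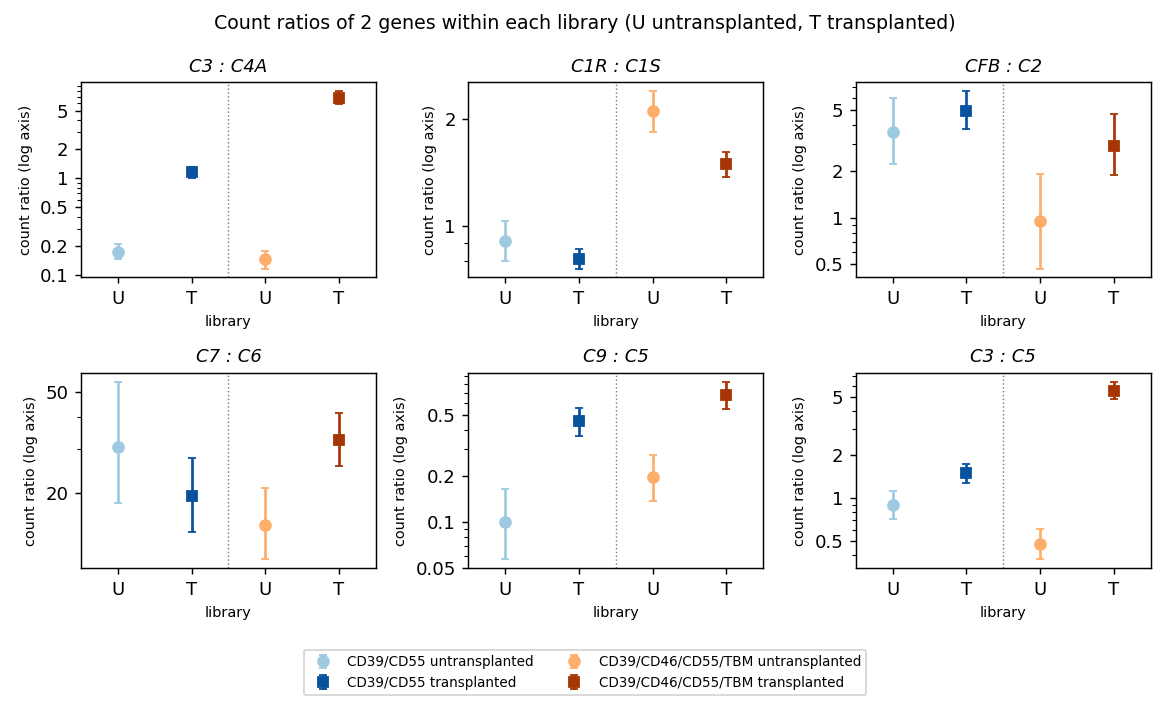
Ratio of the counts of 2 genes within each library, on log axes, with exact 95% intervals; U is untransplanted and T transplanted, CD39/CD55 left and CD46/TBM right of the dotted line. C3 to C4A is higher in both transplanted kidneys, while C1R to C1S separates the genotypes.

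Among the terminal components, C9 (chromosome 16, 24521318 to 24575939), which polymerises into the pore of the membrane attack complex, was the 1 of 4 that rose. It had 17 and 132 counts in CD39/CD55 kidneys and 41 and 163 in CD46/TBM kidneys. These were ratios of 8.39 and 4.81, and the lowest transplanted level was 3.29 times the highest untransplanted one. The log2 fold change over both genotypes was 2.56 (SE 0.57, adjusted p = 0.0264 by edgeR). Without the untransplanted CD39/CD55 library C9 did not pass (2.02, edgeR adjusted p = 0.116), without the untransplanted CD46/TBM one its log2 fold change was 3.40, and over the alternatives its adjusted p ran from 0.00017 to 0.116.

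C7 (chromosome 16, 25846860 to 25902707) gives the growing complex its hold on the membrane. Its counts were 457 and 759 in CD39/CD55 and 632 and 2299 in CD46/TBM kidneys. The higher value after transplantation was 1.84-fold in the first genotype, short of the 2-fold needed for a call, and 4.45-fold in the second. The ratio of these ratios was 2.41 (log2 difference 1.27, counting interval 1.06 to 1.48). Over both genotypes the log2 fold change was 1.77 (SE 0.56, edgeR adjusted p = 0.105). It was 2.42 without the transplanted CD39/CD55 library, where C7 passed (adjusted p = 0.000258), and 0.56 without that of CD46/TBM (0.72). C7 made up 32.9% of the counts of the 10 components in the transplanted CD46/TBM kidney and 12.2% in that of CD39/CD55.

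C6 (chromosome 16, 26023646 to 26089518), which binds C5b before C7 does, had 15 and 39 counts in CD39/CD55 kidneys and 42 and 71 in CD46/TBM kidneys. The untransplanted CD46/TBM level of 3.32 scaled CPM was above the transplanted CD39/CD55 level of 3.15, so the states overlapped. C6 was called higher within each genotype, 2.82-fold and 2.05-fold, and had an adjusted p of 0.349 over both in edgeR's test. C5 (chromosome 1, 260995662 to 261088868), the source of the chemoattractant C5a and of C5b, had the smallest log2 fold change of the 10 over both genotypes, 0.70 (SE 0.41). It had 170 and 291 counts in CD39/CD55 kidneys and 210 and 243 in CD46/TBM kidneys, ratios of 1.90 and 1.41, with an adjusted p of 0.378. C6, C7 and C9 share a chromosome, but C6 and C7 lie 120.9 kb apart and C9 1270.9 kb from C7. The ratio of C7 to C6 counts went from 30.5 to 19.5 in CD39/CD55 and from 15.0 to 32.4 in CD46/TBM, while C9 to C5 went from 0.10 to 0.454 and from 0.195 to 0.671.

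The genotypes were compared in each state and over both. Among untransplanted kidneys, C6 (2.97-fold) and C9 (2.57-fold) were called higher in CD46/TBM and CFB lower, beside 8.16% of all genes higher and 7.89% lower. Among transplanted kidneys C3, C6 (2.16-fold) and C7 (3.62-fold) were called higher and CFB lower, beside 11.0% higher and 11.0% lower. C6 and CFB were thus called on the same side in both states. C3 and C5 were the components whose log2 ratio changed sign between the states, and the rest kept theirs. Over both states none of the 10 components, and 0% of all genes, passed edgeR's quasi-likelihood test. At an unadjusted p under 0.05 there were none of the 10, with 190 genes higher and 259 lower in CD46/TBM, and DESeq2's Wald test called 12 and 5 genes and none of the 10. With state as a block CFB was called lower in CD46/TBM.

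The other complement genes were taken as a list of 41, of which 40 were in the files and 30 had enough counts to be tested. In edgeR's quasi-likelihood test 1 rose and 5 fell, beside 1.24% and 2.71% of all genes, with a median log2 fold change of -0.77. Recognition molecules and their proteases had 3 of 10 tested genes that fell and none that rose. These were the C1q chain genes C1QA, C1QB and C1QC, whose product starts the classical pathway upstream of C1r and C1s. C1QA had 249 and 16 counts in CD39/CD55 kidneys and 121 and 14 in CD46/TBM kidneys, and fell by 3.38 (log2; SE 0.56, adjusted p = 0.00654 by edgeR). C1QB had 1 and 2 counts in the transplanted kidneys, and C1QC had none in either. Recipient transcripts of these genes were not assessed. CFD, the protease that cleaves bound factor B, had 148 and 242 counts in CD39/CD55 kidneys and 137 and 121 in CD46/TBM kidneys (adjusted p = 0.541). CFP, the properdin gene, had 11 and 0 counts in CD39/CD55 kidneys, at least 3.31-fold lower against a floor of 3 counts. In CD46/TBM it had at most 6 counts and the interval of its log2 ratio, -4.64 to 1.19, included no difference. MASP1 had at most 7 counts in any library. The lectins MBL1 and MBL2 had no count in any library, which allows up to 3 counts, or 0.29 scaled CPM in the least deeply sequenced one.

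Regulators were of mixed direction, and 1 of 11 tested, the fluid-phase inhibitor clusterin (CLU), rose. CLU had 1314 and 5074 counts in CD39/CD55 kidneys and 1025 and 21240 in CD46/TBM kidneys (log2 fold change 3.80, SE 0.71, edgeR adjusted p = 0.013). CLU passed in 11 of 11 alternatives, with a log2 fold change of 2.22 without the transplanted CD46/TBM library and 4.55 without that of CD39/CD55. CFI, the gene of the C3b-cleaving protease factor I, had 1103 and 470 counts in CD39/CD55 kidneys and 1651 and 338 in CD46/TBM kidneys, below the untransplanted level in both, and did not pass (log2 fold change -1.58, adjusted p = 0.0604 in edgeR's test). SERPING1, the inhibitor of C1r and C1s, had 978 and 2082 counts, and 709 and 1280 (adjusted p = 0.14). CD59, which blocks the pore, had 435 to 461 counts in the 4 libraries. C4BPA, which restrains the classical convertase, had 55 and 104 counts, and 120 and 53, and was 2.09-fold higher after transplantation in CD39/CD55 and 1.84-fold lower in CD46/TBM.

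Receptors had values below both untransplanted kidneys in both transplanted ones for 7 of 7 tested genes, an order that 25.5% of all genes showed, and 2 fell, beside 2.71% of all genes. C3AR1, the receptor of C3a, had 83 and 5 counts in CD39/CD55 kidneys and 63 and 11 in CD46/TBM kidneys (log2 fold change -2.92, SE 0.67, adjusted p = 0.0305 in edgeR's test). VSIG4, a macrophage receptor of C3b, had 48 and 4 counts, and 38 and 2 (-3.58, SE 0.80, adjusted p = 0.0264). C3AR1 had a log2 fold change of -3.74 without the transplanted CD46/TBM library, and missed the threshold in limma voom (0.051) and without the untransplanted CD39/CD55 library (0.0798), and VSIG4 missed it in these (0.0713 and 0.0884) and without the transplanted CD46/TBM library (0.0533). The C5a receptor gene C5AR1 had 66 and 0 counts in CD39/CD55 kidneys, at least 19.8-fold lower against a floor of 3 counts, and 47 and 12 in CD46/TBM kidneys (adjusted p = 0.121). Of the terminal genes outside the 10, C8G had at most 7 counts and C8A at most 11. C8B had 99 and 79 counts in CD39/CD55 kidneys and 38 and 15 in CD46/TBM kidneys. It was called lower after transplantation in CD46/TBM (2.04-fold). C8B was also called lower in CD46/TBM than in CD39/CD55, 2.38-fold in untransplanted and 4.30-fold in transplanted kidneys. Neither C8A nor C8B passed the test over both genotypes.

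**Figure D4:**
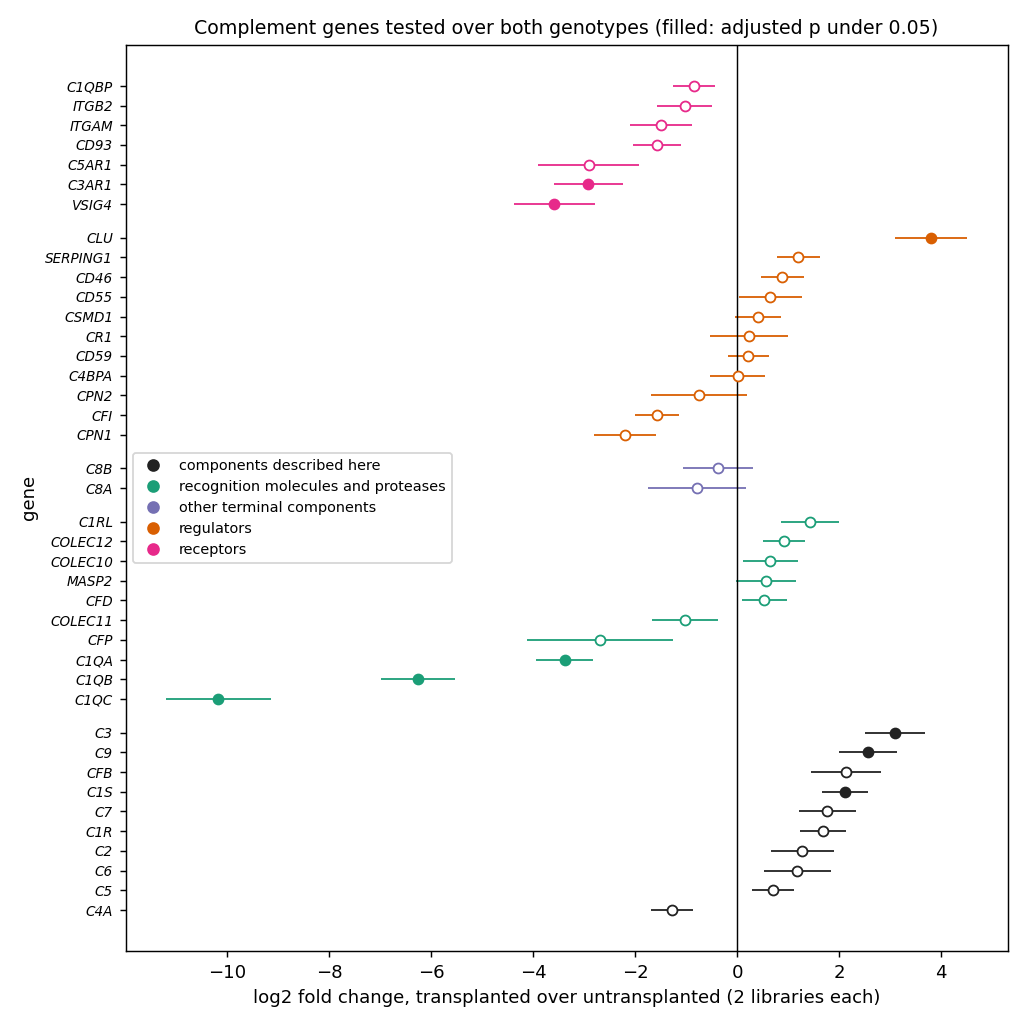
Log2 fold change, transplanted over untransplanted kidney over both genotypes, of the 10 components and the 30 other complement genes tested; bars are the SE and filled points passed the test. The fitted value of C1QC, at 0 in both transplanted kidneys, depends on the prior count and is no estimate of size.

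Markers of the cell types that could hold these transcripts moved with the state of the kidney as well. The shares to set beside the counts for each list are those of all genes in edgeR's test, 1.24% that rose and 2.71% that fell. Macrophage and monocyte markers summed to 56.2 and 54.5 scaled CPM in the untransplanted kidneys and 11.8 and 20.3 in the transplanted CD39/CD55 and CD46/TBM kidneys, with 4 of 8 that fell and none that rose. CSF1R had 2 counts in each transplanted kidney and TYROBP 1 and 6. These are counts of pig genes, and recipient macrophages were not assessed. CD14 had values in the other direction, 21 and 48 counts in CD39/CD55 kidneys and 12 and 41 in CD46/TBM kidneys, and was called higher in both (2.50-fold and 4.04-fold; edgeR adjusted p = 0.165 over both). Fibroblast and stroma markers summed to 901 and 579 in CD39/CD55 and 499 and 339 in CD46/TBM kidneys, and none of 8 passed in edgeR's test, while 1 fell by DESeq2's Wald test and 1 by limma voom. At an unadjusted p under 0.05 the collagen genes COL1A1 and COL3A1 had lower values, and PDGFRA, a receptor gene of fibroblasts, higher ones, 2.09-fold and 2.31-fold within the genotypes. Injured tubule markers summed to 92.2 and 1476 in CD39/CD55 and 70.5 and 2546 in CD46/TBM kidneys, nearly all of it the osteopontin gene SPP1. Of these, 2 of 4 tested rose, SPP1 and SOX9. LCN2 had 42 and 63 counts in CD39/CD55 kidneys and 19 and 255 in CD46/TBM kidneys, and did not pass (edgeR adjusted p = 0.0517). VCAM1 did not pass either, with 331 and 318 counts, and 265 and 184. HAVCR1 had 6 and 3 counts, and 5 and 1, and KRT20 at most 5, too few to be tested. Other tubule epithelium markers had values above both untransplanted kidneys in both transplanted ones for 6 of 8 genes. This order was shown by 26.3% of all genes. The keratin gene KRT7 was the 1 of 8 that rose (log2 fold change 2.31, SE 0.53, edgeR adjusted p = 0.0312). KRT7 did not pass without the untransplanted CD46/TBM library (1.77, adjusted p = 0.112), nor SOX9 in limma voom (0.0573) or without the transplanted CD46/TBM one (0.0709). The summed level of the other tubule markers, most of it the loop of Henle gene UMOD before transplantation, was 3689 and 1112 scaled CPM in CD39/CD55 and 1553 and 1042 in CD46/TBM kidneys. Proximal tubule markers summed to 9544 and 5682, and 11074 and 2915, and 6 of 8 fell. Endothelial markers summed to 192 and 110, and 180 and 107, with 1 of 6 that fell. The part of these shifts in the values of the components was not tested.

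Hepatocyte markers were checked because the liver is the main source of plasma complement. ALB had at most 5 counts in any library, APOA2 at most 1 and SERPINA1 none. Of the other 6 markers, each with counts in at least 1 library, HP rose and TTR and TF fell. Among all genes 1.24% rose and 2.71% fell. TF had 3297 and 720 counts in CD39/CD55 kidneys and 1992 and 165 in CD46/TBM kidneys, and TTR 72 and 0, and 215 and 0. APOA1 had 288 and 188 counts, and 267 and 257. AHSG had 36 and 48, and 24 and 47, and APOB at most 21 in any library. HP, the haptoglobin gene, had 18 and 58 counts in CD39/CD55 kidneys and 9 and 554 in CD46/TBM kidneys (log2 fold change 4.82, SE 0.93, adjusted p = 0.0146 in edgeR's test), the larger ratio being in the same genotype as for C3. HP did not pass in limma voom (adjusted p = 0.104) or, with a log2 fold change of 2.20, without the transplanted CD46/TBM library (0.105).

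The 5 genes whose pattern over the 4 libraries was nearest to that of C3, among 13262 with at least 50 counts in all, were HTR2B, HK2, KRT80, TMEM150C and JAKMIP3. Nearness was the Euclidean distance of centred log2 scaled counts, and with 4 libraries it is a description only. HTR2B, a serotonin receptor gene, had 14, 44, 10 and 123 counts in the untransplanted and transplanted CD39/CD55 and the untransplanted and transplanted CD46/TBM kidneys (distance 0.151). HK2, a hexokinase gene of glycolysis, had 17, 51, 10 and 130 in the same order (0.234).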

How the data were processed

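Kidney RNA was isolated by phenol and chloroform, and sequencing libraries came from a kit given as Lexogen QuantSeq, per the labels' protocols. Whether reads come from the 3' end or the whole transcript was not settled, so levels of different genes are not compared, and shares and ratios of counts are read only between libraries. The authors deposited raw read counts per gene symbol, 1 column per library. Per the submitters' processing notes, the tools were Bowtie2 and bedtools and the build was Sscrofa11.1. The sources used here give no versions, use of strand or handling of reads shared between genes, so values of adjoining genes such as C2, CFB and NELFE are uncertain. Lines of the 81 repeated symbols were summed. Coordinates are those of RefSeq for the same build.

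The 18168 genes that reached 10 counts in any library were scaled by TMM and tested across all genes with edgeR 4.0.16 (R 4.3.3), with 2 residual degrees of freedom and Benjamini-Hochberg adjustment at 0.05. Ratios of 2 libraries used a prior count of 0.5 and conditional binomial (Clopper-Pearson) intervals, with no p-value. Alternatives used DESeq2 1.42.0 and limma 3.58.1. On simulated counts of 17558 genes for the comparison over both genotypes, the test recovered 100 of 100 genes changed 4-fold and 100 of 100 changed 16-fold, with 13 false calls. The simulation gave every gene the same dispersion and no difference between genotypes, and changed only genes with higher counts. It therefore checks the code and does not say how many 4-fold changes the test misses in these kidneys. The components and gene lists were chosen with earlier results of these data known, and 2 genes of the lists are not reported here. The text names the 10 components, every other complement gene past the test, a fixed set of regulators and receptors, and the 5 genes nearest to C3 among those without a provisional LOC symbol. PCR reads without molecular identifiers are not independent molecules, so intervals cover counting error only.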

Additional observations from a re-analysis of the deposited data

Results flagged for a closer look

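C4BPA, the gene of the alpha chain of C4b-binding protein, differed in direction between the genotypes. Its 55 and 104 counts in CD39/CD55 kidneys gave a log2 ratio of 1.06 (95% counting interval 0.58 to 1.57) for transplanted over untransplanted, and its 120 and 53 counts in CD46/TBM kidneys gave -0.88 (-1.38 to -0.41). The log2 difference between the genotypes was -1.94. With 1 library per group the difference was not tested against replicates. The symbol stands on 2 lines of the files. The first had 40 and 104, and 88 and 53 counts, opposite in direction by itself, and the second had 15 and 0, and 32 and 0.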

How the results depend on the processing

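Over both genotypes, DESeq2's Wald test called 431 genes higher and 865 lower, the fit without a filter 543 and 1035, and that with genotype as a block 1124 and 1681. Under each of these 3, 6 of the 10 components rose (C1R, C1S, C3, C7, C9 and CFB), with C4A as 1 that fell under the block. Of the other complement genes 1, 1 and 3 rose and 9 fell under each, and under limma voom 3 fell. Leaving out a library gave 186 to 1051 genes that rose and 392 to 1349 that fell, 2 to 5 components that rose and 0 to 1 that fell, and 1 to 2 other complement genes that rose and 3 to 7 that fell. The highest component counts came without the transplanted CD39/CD55 library. In the genotype comparison DESeq2 called 12 genes higher and 5 lower in CD46/TBM, and the fit with state as a block 133 and 171, with 1 component, CFB, lower. Leaving out a library gave 0 to 14 genes higher and 0 to 4 lower, and none of the 10 components. A lone library of a side was assumed to vary like the others.

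All 200 recomputed component ratios stayed within the counting interval of the reported value under other scalings or a prior count of 2. They were ratios between 2 libraries and the ratio of the transplantation ratios of the genotypes. Library totals without TMM moved the median of all genes from 0.03 to 0.13 on the log2 scale over both genotypes. With them 0 components were called lower in CD39/CD55, since C4A fell short of 2-fold. Of the 3 components that rose, C3 passed in all 11 alternatives, and C1S and C9 in 10 each. The fit with genotype as a block pairs the untransplanted and transplanted library of each genotype; the labels give no replicate numbers and do not say that the paired kidneys share an animal. C2 and C6 had fewer than 80 counts in any library.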

Other observations

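Genes that carry signals known to induce complement transcription were read as a list of 29, of which 27 were tested. None passed edgeR's quasi-likelihood test between the states. At an unadjusted p under 0.05 there were 7 with higher values, beside 1633 of the 18168 genes tested. For comparison, 3 rose by DESeq2's Wald test and none by limma voom. The list had a median log2 fold change of 0.45. Within CD39/CD55, 6 were called higher and 1 lower after transplantation, beside 13.2% and 13.7% of all genes, and within CD46/TBM 11 and 3, beside 15.9% and 16.3%. The transcription factor gene STAT3, which acts downstream of interleukin 6, had 180 and 340 counts in CD39/CD55 kidneys and 296 and 1459 in CD46/TBM kidneys (log2 fold change 2.21, SE 0.64, adjusted p = 0.0766). SOCS3, a feedback inhibitor of the same pathway, had 62 and 127 counts, and 73 and 302 (1.94, adjusted p = 0.0662). IRF1, an interferon-induced transcription factor gene, had 185 and 131 counts in CD39/CD55 kidneys and 54 and 326 in CD46/TBM kidneys. STAT3, SOCS3 and IRF1 were named after their values were seen. TNF and IL1B had at most 10 and 5 counts in any library. IL6 had 1 and 20 counts in CD39/CD55 kidneys and 3 and 10 in CD46/TBM kidneys.

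C1RL, a protease gene next to C1R, had 26 and 110 counts in CD39/CD55 kidneys and 73 and 122 in CD46/TBM kidneys, with an adjusted p of 0.187. Its untransplanted level was higher in CD46/TBM, as that of C1R was.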
